A study of Mus musculus with 18 samples.

Results

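The classical cadherins are the transmembrane proteins that hold neighbouring cells of a tissue together, and 9 of their genes were followed along the body axis of the mouse embryo. They were Cdh1, Cdh2, Cdh3 and Cdh4 of type I and Cdh6, Cdh7, Cdh8, Cdh11 and Cdh20 of type II. The members were given by name and were found in the deposited table through their Ensembl identifiers, 9 rows of 53465. RNA sequencing had been done on 18 libraries from 9 embryos taken at embryonic day 9 with 20 to 24 somites, each cut into an anterior and a posterior piece. The posterior piece held the axial bud and the 10 to 12 youngest somites, and the anterior piece was the rest of the axis that carries somites. With 5 control and 4 DKO embryos, each of the 2 pieces gave 5 control and 4 DKO libraries, 4 groups in all.

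DKO embryos carried, per the labels, a conditional deletion with Delta1Cre of Meis1 and Meis2, a pair of homeobox transcription factors. The labels name the other embryos Control and give no alleles for them. Delta1 (Dll1) is a Notch ligand of the primitive streak and presomitic mesoderm, so a Cre of this origin need not delete the genes in every tissue of a piece. The stated aim was to find Meis targets in skeletal patterning along the axis, with early patterning separated from somite differentiation.

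Classical cadherins bind the same or a related cadherin on the next cell with their outermost repeat and bind beta-catenin and p120-catenin inside the cell, and alpha-catenin joins them to actin. Epithelia typically carry E-cadherin (Cdh1) and P-cadherin (Cdh3), whereas the neural tube and somites carry N-cadherin (Cdh2). Type II cadherins mark mesenchyme, neural crest and subsets of neurons, and a switch between cadherins accompanies gastrulation and neurulation.

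Because Meis factors were the ones deleted, the promoters of the members were searched for the core letters TGACAG that Meis proteins bind. The RefSeq promoter table (GRCm38.p6) matched Cdh6, Cdh7, Cdh8 and Cdh20, 4 of the 9 members. Cdh1, Cdh2, Cdh3, Cdh4 and Cdh11 had no entry matched. The windows shown are 2 of 6, those of Cdh20 and Cdh6, chosen because neither overlaps an annotated exon. Each holds the core. Both are the 250 bases before the start, written 5′ to 3′ on the strand of the gene, with the core in capitals as CTGTCA, its form on the opposite strand.
Cdh20, chr1:104768270-104768519, plus strand: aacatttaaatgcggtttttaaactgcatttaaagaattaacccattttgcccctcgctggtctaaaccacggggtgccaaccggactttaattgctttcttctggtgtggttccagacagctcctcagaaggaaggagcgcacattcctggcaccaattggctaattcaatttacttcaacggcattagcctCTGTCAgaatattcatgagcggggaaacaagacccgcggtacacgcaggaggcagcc
Cdh6, chr15:13173676-13173925, minus strand: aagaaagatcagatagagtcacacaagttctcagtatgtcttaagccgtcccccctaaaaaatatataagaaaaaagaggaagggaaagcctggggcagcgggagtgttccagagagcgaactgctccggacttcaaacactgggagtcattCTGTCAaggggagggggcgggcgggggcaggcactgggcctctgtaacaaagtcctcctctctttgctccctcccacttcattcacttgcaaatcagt
The capitals begin 57 bases before the start of Cdh20 and 98 bases before that of Cdh6. TGACAG in either orientation occurs in 15.9% of the 32851 windows of this length. CAGGTG, the E-box letters bound by Snail and Zeb repressors (17.2% of all windows), and TTTATG, a core bound by Cdx factors (10.8%), were absent from both on either strand, and none of these motifs overlaps another. Of the windows not shown, 1 of the 3 of Cdh7 held TGACAG, the other two held CAGGTG, and that of Cdh8 held none of the 3 motifs. A match of letters is not a site in use, and these data do not measure binding.

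Totals were 12.7 to 38.2 megacounts of expected counts per library, and 3 counts, taken as the floor, came to 0.0791 to 0.233 CPM (counts per megacount of the library, scaled by TMM) and cover counting error only. As a check of the deletion, Meis2 was at 177 to 203 CPM in anterior controls against 130 to 157 CPM in anterior DKO pieces, and at 117 to 162 against 91.2 to 116 CPM in posterior ones. Meis1 was at 113 to 135 against 89.8 to 111 CPM in anterior pieces and at 59.6 to 99.9 against 46.7 to 72.0 CPM in posterior ones, where the groups overlapped. Neither gene passed in either piece: the log2 fold changes were −0.30 and −0.55 for Meis1 (edgeR adjusted p = 0.123 and 0.336) and −0.41 and −0.52 for Meis2 (edgeR adjusted p = 0.0522 and 0.196), anterior first. With DESeq2 both genes passed in both pieces (adjusted p = 0.00747 and 0.0444 for Meis1, 1.31e-07 and 0.000442 for Meis2). Gene-level counts include transcripts that lack only a deleted exon. Control embryo 1 was labelled female but had Xist at 0.211 and 0.34 CPM, against 405 to 668 CPM in the other 8 libraries labelled female and 0.156 to 0.778 CPM in the 8 labelled male. The regional changes of the control embryos are therefore also given without it. Without it, the comparisons of DKO with control embryos and the interaction called 0 of the 9 members (edgeR), as with it. Within a group the libraries differ in sex label or somite number and were taken as separate embryos on that basis. Control embryos 1 and 5 both have 23 somites and are told apart by the sex label alone, the label that Xist puts in doubt for embryo 1.

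To compare one gene with another, CPM were divided by the length of the gene's exons in kilobases. On this scale N-cadherin (Cdh2) was first in all 4 groups, at 34.0 ± 2.26 CPM per kb in anterior controls (SD, n = 5) and 35.6 ± 1.08 CPM per kb in posterior controls (SD, n = 5). Cdh2 alone made up 52.9% ± 1.64 (SD, n = 5) of the summed level of the 9 genes in anterior controls and 49.1% ± 1.98 (SD, n = 5) in posterior controls. Behind it the order depended on the piece.

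In anterior controls Cdh11 (13.8 CPM per kb) came second, followed by Cdh3 (5.5), Cdh6 (5.46), Cdh1 (3.33), Cdh4 (1.69), Cdh20 (0.345), Cdh7 (0.115) and Cdh8 (0.0981 CPM per kb). The ranges of Cdh3 and Cdh6 overlapped there, as did those of Cdh7 and Cdh8, and all other neighbours in the order were apart. In posterior controls Cdh3 (13.4) moved to the second place, ahead of Cdh11 (9.4), Cdh1 (8.17), Cdh6 (4.61), Cdh4 (1.15), Cdh20 (0.211), Cdh7 (0.0431) and Cdh8 (0.0159 CPM per kb). Cdh3 overlapped Cdh11 and Cdh11 overlapped Cdh1, while Cdh3 (10.4 to 15.4 CPM per kb) and Cdh1 (6.63 to 9.41 CPM per kb) were apart. Anterior DKO pieces had Cdh6 (6.03) apart from Cdh3 (4.4), while Cdh3 overlapped Cdh1 (4.14 CPM per kb) and Cdh7 overlapped Cdh8. Posterior DKO pieces had the order of the posterior controls, with the same 2 overlapping pairs of neighbours.

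The pair of epithelial cadherins, Cdh1 and Cdh3, accounted for 13.7% ± 2.27 (SD, n = 5) of the summed level per kb in anterior controls and 29.6% ± 3.67 (SD, n = 5) in posterior controls. The type II pair Cdh6 and Cdh11 went the other way, from 29.9% ± 2.36 to 19.3% ± 1.71 (SD, n = 5 each). In neither pair did the anterior and posterior ranges overlap (10.5% to 16% against 25.2% to 33.0%, and 26.4% to 32.9% against 17.4% to 21.1%). In the DKO groups the shares were 12.9% ± 1.28 anterior and 30.4% ± 1.45 posterior for Cdh1 with Cdh3, and 31.0% ± 1.18 and 20.6% ± 1.99 for Cdh6 with Cdh11 (SD, n = 4 each). The ratio of Cdh2 to Cdh1 per kb was 10.9 ± 2.9 in anterior controls and 4.45 ± 0.706 in posterior controls (SD, n = 5 each). These shares are descriptions and were not tested.

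**Figure D1:**
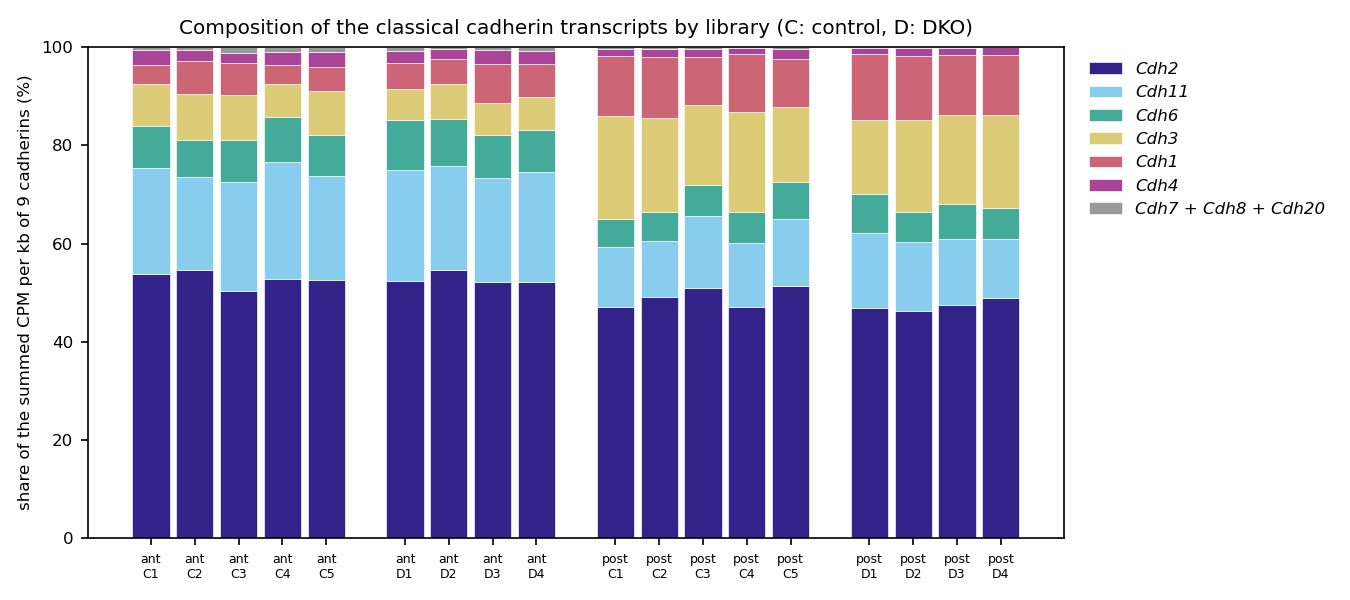
Share of each cadherin in the summed CPM per kilobase of the 9 genes (vertical axis, %), one bar per library, with C for control and D for DKO embryos. Cdh2 takes 46.4% to 54.7% of every bar, and Cdh1 with Cdh3 take 25.2% to 33.0% in posterior controls against 10.5% to 16% in anterior controls.

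The first comparison was of the posterior with the anterior piece of control embryos. Cdh1 and Cdh3 were higher posteriorly, Cdh4, Cdh6, Cdh7 and Cdh11 were lower, and Cdh2 and Cdh20 did not pass the test. Of the 9 members 8 were abundant enough to test, and 6 of them passed at an adjusted p below 0.05 (edgeR quasi-likelihood test, Benjamini-Hochberg adjustment over all genes). The background in this comparison was 25.4% of all 15294 genes tested, 12.1% higher and 13.3% lower. The same 6 genes, 2 higher and 4 lower, had ranges that did not overlap between the pieces, against 20.1% of all genes tested (9.45% higher and 10.7% lower). The median size of the log2 fold change was 0.62 over the 8 members and 0.15 over all genes. In a piece of whole tissue, fewer cells of a type and less RNA per cell cannot be told apart.

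Cdh1, the E-cadherin of epithelia, was at 11.2, 21.0, 19.4, 10.9 and 13.8 CPM in the 5 anterior controls. In the posterior pieces of the same embryos it was at 41.3, 43.0, 32, 40.2 and 30.3 CPM. Every posterior value lay above every anterior one, and within embryos the log2 difference ran from 0.72 to 1.88. The fitted log2 fold change was 1.30 ± 0.185 (SE; edgeR adjusted p = 0.000221), or 2.45-fold. Without control embryo 1 it was 1.16 (edgeR adjusted p = 0.00265).

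Cdh3 encodes P-cadherin, which accompanies E-cadherin in surface and other embryonic epithelia. It was at 23.2, 28.7, 26.7, 18.5 and 23.5 CPM in anterior controls and at 67.6, 63.3, 50.8, 66.0 and 45.6 CPM in posterior controls. The lowest posterior library was above the highest anterior one by a wide margin. Its log2 fold change was 1.29 ± 0.132 (SE; edgeR adjusted p = 1.4e-05) and 1.22 without control embryo 1. The 2 genes lie close together on the plus strand of chromosome 8, Cdh3 at chr8:106510891-106557297 and Cdh1 at chr8:106603351-106670246 (GRCm38).

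Cdh2, the N-cadherin of neural tube and somites, was nearly level along the axis. Its values were 269, 306, 269, 269 and 258 CPM in anterior controls and 282, 299, 294, 283 and 279 CPM in posterior controls. The ranges overlapped and the posterior value was the higher one in 4 of 5 embryos. A log2 fold change of 0.07 ± 0.0509 (SE) did not pass (edgeR adjusted p = 0.38), nor did it without control embryo 1 (edgeR adjusted p = 0.508). Cdh2 overlaps an antisense gene, and whether counting used the strand is not stated.

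Cdh4 encodes R-cadherin, found in parts of the nervous system and in kidney and muscle precursors. Cdh4 (chr2:179442431-179899373) was at 13, 11.1, 10.6, 12.7 and 13.9 CPM in anterior controls and 8.31, 9.11, 8.12, 6.53 and 9.56 CPM in posterior controls. The ranges were apart, with the posterior pieces lower in each of the 5 embryos. Its log2 fold change was −0.56 ± 0.119 (SE; edgeR adjusted p = 0.00379), and −0.54 without control embryo 1.

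Among the type II genes, Cdh11 (osteoblast or mesenchymal cadherin) had the highest level in CPM per kb. Anterior controls had 119, 116, 131, 133 and 114 CPM and posterior controls 79.7, 77.7, 93.2, 85.2 and 83.0 CPM. All posterior pieces were below all anterior ones, with 93.2 CPM the highest posterior and 114 CPM the lowest anterior value. Cdh11 (chr8:102632095-102785642) and Cdh8 (chr8:99024471-99416471) share chromosome 8 with Cdh1 and Cdh3 but are on the minus strand, and their posterior values were the lower ones. On the log2 scale the change was −0.55 ± 0.0612 (SE; edgeR adjusted p = 2.88e-05), and −0.54 without control embryo 1.

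Cdh6, the K-cadherin of kidney and neural tissue (chr15:13028701-13173675), differed less. It was at 47.8, 47.7, 51.8, 52.8 and 46.1 CPM anteriorly and 38.8, 40.3, 41.3, 43.0 and 44.8 CPM posteriorly in controls. The highest posterior library was just below the lowest anterior one. Its log2 fold change was −0.24 ± 0.0549 (SE; edgeR adjusted p = 0.00581), or 1.18-fold lower, and −0.22 without control embryo 1. Cdh11 was 2.52 ± 0.0394 times Cdh6 per kb in anterior controls and 2.04 ± 0.157 times in posterior controls (SD, n = 5 each). In DKO embryos it was 2.39 ± 0.206 times anteriorly and 2.01 ± 0.147 times posteriorly (SD, n = 4 each).

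The remaining type II genes were scarce, among them Cdh7 (chr1:109982431-110140157) and Cdh20 (chr1:104768529-104995481), both on chromosome 1. Cdh7, a cadherin of neural crest and neural tube subsets, had 15 to 25 counts in each anterior control and 6 to 19 in each posterior one. This came to 1.13, 0.968, 1.32, 1.38 and 0.972 CPM against 0.501, 0.43, 0.303, 0.34 and 0.589 CPM, with no overlap. The log2 fold change was −1.41 ± 0.253 (SE; edgeR adjusted p = 0.00122), and −1.49 without control embryo 1. Its counts pass the minimum mainly through the anterior libraries, where it is high, so that its call adds little to the count of 6.

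Cdh8, a cadherin of neuronal subsets, did not reach the minimum count for the test. It had 7, 25, 15, 13 and 8 counts in the anterior controls and 2, 3, 4, 1 and 3 in the posterior ones, or 0.397 to 1.17 against 0.034 to 0.202 CPM. The summed counts of 68 and 13 gave an anterior to posterior ratio of 7.37 after scaling to depth (95% exact counting interval 4.04 to 14.6). Cdh8 overlaps other annotated genes, an antisense gene among them, so that counts may belong to these. With no filter on low counts, where entry to the test does not depend on the values, Cdh8 had a log2 fold change of −2.70 (edgeR adjusted p = 0.00166), which rests on 1 to 4 posterior counts per library.

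Cdh20, a type II cadherin of neural tissue, was at 0.93 to 1.87 CPM (median 1.44) in anterior and 0.612 to 1.11 CPM (median 0.897) in posterior controls. The ranges overlapped. It was lower posteriorly in 5 of 5 embryos, by 0.04 to 1.12 on the log2 scale, but the fitted change of −0.68 ± 0.26 (SE) did not pass (edgeR adjusted p = 0.075), nor did the −0.78 without control embryo 1 (edgeR adjusted p = 0.114). Cdh20 also overlaps an antisense gene.

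**Figure D2:**
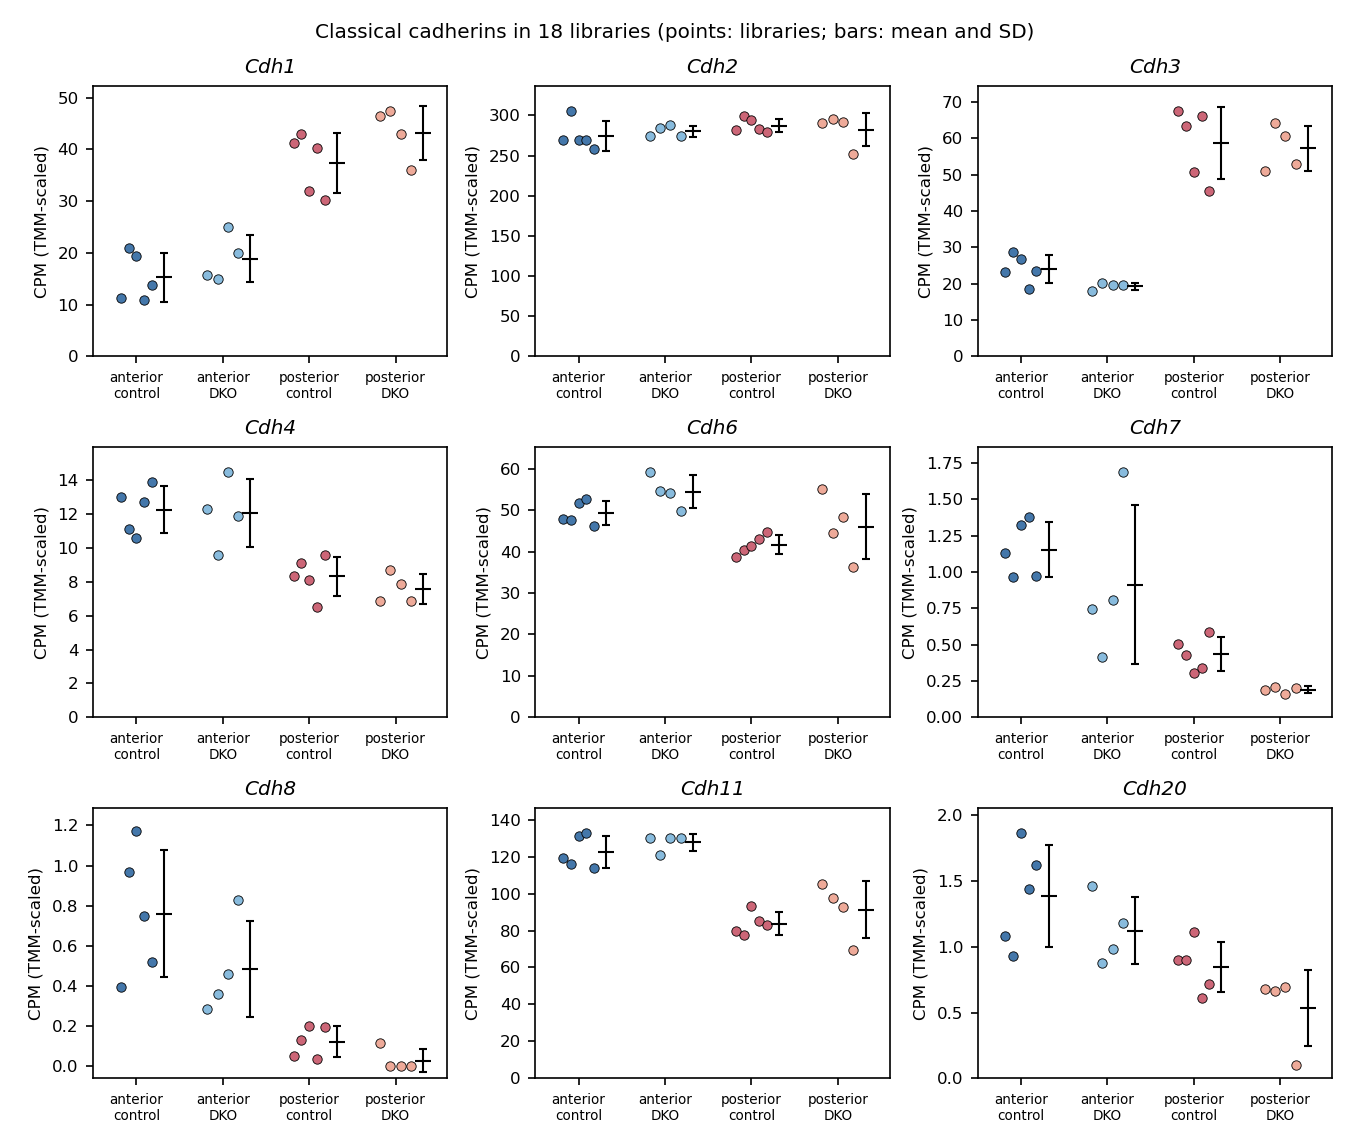
TMM-scaled CPM of each cadherin (vertical axes, own scale per gene, from 0) in the 18 libraries by group, with points for libraries and the black mark and bar for mean and SD. Cdh1 and Cdh3 are higher in every posterior than in every anterior control, Cdh2 is level, and 3 of the 4 posterior DKO libraries have Cdh8 at 0.

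The regional difference was then measured in the 8 DKO libraries. Cdh1 and Cdh3 were again higher posteriorly, Cdh4 and Cdh11 lower, and Cdh2, Cdh6 and Cdh20 did not pass. These were 4 of the 7 members tested (edgeR, adjusted p below 0.05), where the background was 18.5% of 15777 genes, 8.76% higher and 9.7% lower. Ranges did not overlap for 5 of the 7 members, Cdh20 being the addition, against 23.6% of all genes.

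Cdh1 was at 15.7, 15, 24.9 and 20.0 CPM in anterior and 46.4, 47.5, 42.9 and 36.0 CPM in posterior DKO pieces. Cdh3 was at 17.9, 20.1, 19.5 and 19.7 CPM against 51.1, 64.3, 60.6 and 52.9 CPM. Both genes separated the pieces completely. The log2 fold changes were 1.20 ± 0.159 for Cdh1 (SE; edgeR adjusted p = 0.000464) and 1.57 ± 0.0862 for Cdh3 (SE; edgeR adjusted p = 2.21e-06).

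Cdh4 was at 12.3, 9.57, 14.5 and 11.9 CPM in anterior DKO pieces and 6.85, 8.72, 7.85 and 6.86 CPM in posterior ones, without overlap. The log2 fold change was −0.67 ± 0.143 (SE; edgeR adjusted p = 0.00833). Without DKO embryo 1 this call was lost (−0.61, edgeR adjusted p = 0.0772).

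Cdh11 was at 130, 121, 130 and 130 CPM in anterior DKO pieces and 105, 97.7, 92.5 and 69.3 CPM in posterior ones. The groups were apart, and DKO embryo 4 had by far the lowest posterior value. Its log2 fold change was −0.49 ± 0.11 (SE; edgeR adjusted p = 0.011), and the call was lost without DKO embryo 3 (edgeR adjusted p = 0.0529).

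For Cdh6 the values were 59.3, 54.7, 54.1 and 49.7 CPM anteriorly and 55.0, 44.5, 48.3 and 36.3 CPM posteriorly in DKO embryos, and the ranges overlapped. The log2 fold change was again −0.24, now with an SE of 0.114 (edgeR adjusted p = 0.198). Cdh2 was at 274, 284, 288 and 274 CPM against 290, 295, 292 and 252 CPM, and its difference on the log2 scale was 0.02 ± 0.0647 (SE; edgeR adjusted p = 0.917). Cdh20 was at 0.875 to 1.46 against 0.102 to 0.694 CPM, and its log2 fold change of −1.05 ± 0.43 (SE) did not pass (edgeR adjusted p = 0.13). Without DKO embryo 4, the lowest library, it was −0.73 (edgeR adjusted p = 0.177).

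Cdh7 and Cdh8 fell below the minimum count here. Cdh7 had 26, 8, 14 and 49 counts in anterior DKO pieces and 5, 6, 3 and 4 in posterior ones, an anterior to posterior ratio of 5.0 (95% exact counting interval 3.0 to 8.78). Cdh8 had 10, 7, 8 and 24 counts against 3, 0, 0 and 0, a ratio of 15.1 (95% exact counting interval 4.89 to 76.0). With no filter on low counts the edgeR adjusted p was 0.00502 for Cdh7 (log2 fold change −2.24) and 0.00731 for Cdh8. In the 3 libraries listed at 0, up to 3 counts, or 0.105 to 0.16 CPM, are allowed.

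Within embryos, whatever the genotype, Cdh1 and Cdh3 were higher in the posterior piece in 9 of 9 embryos. Cdh4, Cdh6, Cdh7, Cdh8, Cdh11 and Cdh20 were lower there in 9 of 9, and Cdh2 was higher in 7 of 9.

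**Figure D3:**
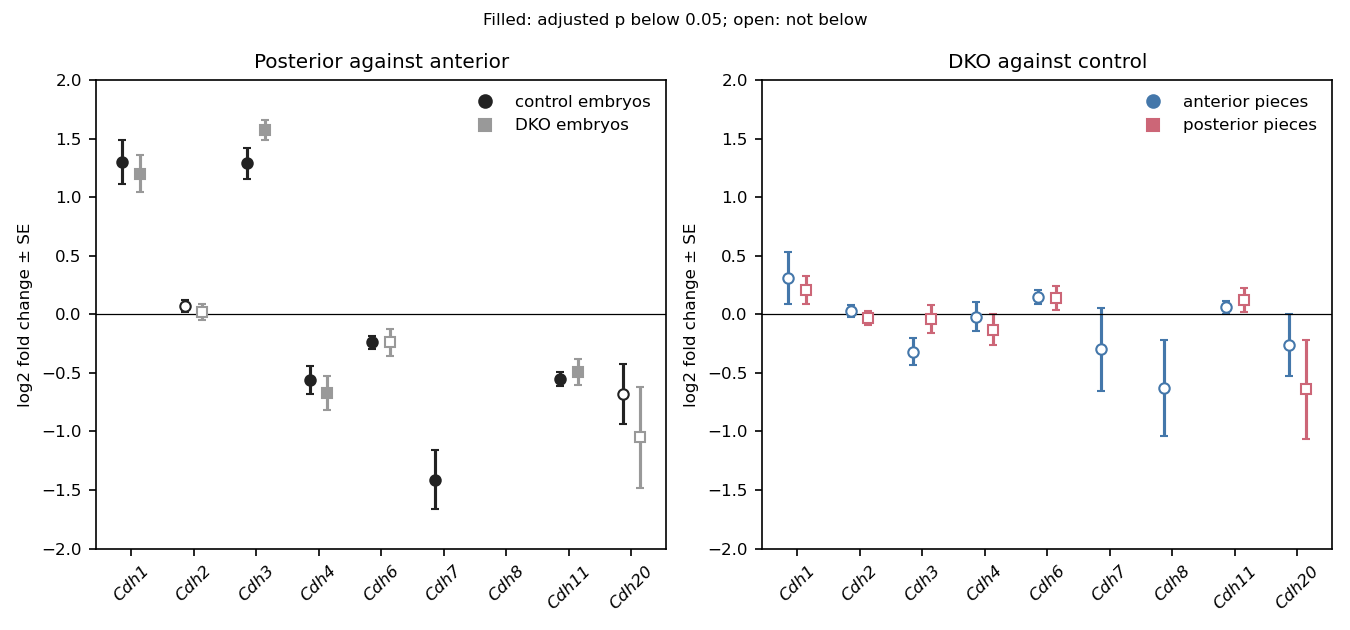
Log2 fold change with its SE (vertical axis) of each cadherin by edgeR, posterior against anterior on the left and DKO against control on the right, with filled symbols for an adjusted p below 0.05. Posterior pieces have Cdh1 and Cdh3 higher by 1.20 to 1.57 and Cdh4 and Cdh11 lower in both genotypes, no symbol on the right is filled, and genes below the minimum count have no symbol.

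The study's own comparison was of DKO with control embryos. None of the 9 members passed in either piece. In anterior pieces 0 of 9 members were called (edgeR), against 0.0394% of 15238 genes, and in posterior pieces 0 of 7, against 0.0126% of 15936 genes. At an unadjusted p below 0.05 there were 2 members anteriorly, where 13% of all genes were below it, and 0 posteriorly (11% of all genes). Without DKO embryo 4 there were 4 of 9 members tested anteriorly (Cdh3, Cdh6, Cdh7 and Cdh8), where 11.5% of all genes were below it. Posteriorly there were then 4 of 8 (Cdh1, Cdh6, Cdh7 and Cdh11), where 7.58% were. In neither piece did any of them pass the adjusted threshold. With any other embryo left out there were 1 or 2 members anteriorly and 0 or 1 posteriorly. DESeq2 and limma-voom also called 0 members in both pieces. Ranges of control and DKO libraries overlapped for all members tested, while 5.07% of all genes anteriorly and 4.24% posteriorly had ranges apart.

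The 2 genes with an unadjusted p below 0.05 in anterior pieces were Cdh3 and Cdh6. Cdh3 averaged 24.1 ± 3.87 CPM in controls (SD, n = 5) and 19.3 ± 0.963 CPM in DKO embryos (SD, n = 4), with a log2 fold change of −0.32 ± 0.114 (SE; edgeR adjusted p = 0.273). The anterior DKO values ran from 17.9 to 20.1 CPM and the control values from 18.5 to 28.7 CPM, so that the ranges overlapped through control embryo 4, the lowest control. Cdh6 averaged 49.2 ± 2.87 CPM in controls and 54.4 ± 3.94 CPM in DKO embryos, and its change on the log2 scale was 0.15 ± 0.0592 (SE; edgeR adjusted p = 0.337).

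Cdh1 had mean levels of 15.2 ± 4.68 in anterior controls (SD, n = 5) and 18.9 ± 4.6 CPM in anterior DKO pieces (SD, n = 4). Posteriorly the means were 37.4 ± 5.79 and 43.2 ± 5.2 CPM. The log2 fold changes of 0.31 ± 0.221 and 0.21 ± 0.12 (SE) did not pass (edgeR adjusted p = 0.603 and 0.51). With 1 embryo left out they ran from 0.15 to 0.46 anteriorly and from 0.14 to 0.28 posteriorly. Summed over the 10 markers of surface ectoderm and general epithelium, the level was 284 to 399 CPM in posterior controls and 408 to 487 CPM in posterior DKO pieces. In anterior pieces the sums overlapped, at 125 to 244 CPM in controls and 150 to 236 CPM in DKO embryos. None of the 10 was called in either piece, none was at 0 in every library of a group, and their part in the values of Cdh1 was not tested.

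N-cadherin had log2 fold changes of 0.03 ± 0.0537 anteriorly and −0.03 ± 0.0619 posteriorly (SE). For Cdh11 they were 0.06 ± 0.0533 and 0.12 ± 0.103, and for Cdh4 −0.02 ± 0.125 and −0.13 ± 0.134. The scarce genes were less precise. In anterior pieces Cdh7 had −0.30 ± 0.356 (SE), from −0.80 without DKO embryo 4 to −0.075 without DKO embryo 2. Cdh8 had −0.63 ± 0.412 (SE) there, from −1.06 without DKO embryo 4 to −0.42 without DKO embryo 1, among the omissions that left it above the minimum count. Cdh20 had −0.26 ± 0.264 anteriorly (SE), from −0.42 without DKO embryo 1 to −0.14 without control embryo 3. In the posterior piece it had −0.64 ± 0.421 (SE), from −0.78 without DKO embryo 1 to −0.33 without DKO embryo 4. None of these passed (edgeR). Cdh7 in the posterior piece had 54 counts in the 5 controls and 18 in the 4 DKO libraries, a control to DKO ratio of 2.23 (95% exact counting interval 1.29 to 4.04). All 4 DKO values (0.16 to 0.209 CPM) were below all 5 control values (0.303 to 0.589 CPM), but all rest on 3 to 19 counts. Cdh7 enters the fit of all 18 libraries through the anterior ones, where it is high, so that fit adds no support. Its log2 fold change in it was −1.14 (unadjusted p = 0.00956, edgeR adjusted p = 0.207). In that fit 16.1% of 16428 genes had an unadjusted p below 0.05.

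Whether the DKO effect differed between the pieces was tested by the interaction of region and genotype over all 18 libraries. No member passed (0 of 9, edgeR), where the background was 0% of 16428 genes. An unadjusted p below 0.05 was found for 3.45% of all genes and for 0 members. The smallest member p was that of Cdh7 (log2 difference −0.83 ± 0.502, unadjusted p = 0.115, edgeR adjusted p = 0.999), and it ran from −1.11 without DKO embryo 2 to −0.36 without DKO embryo 4. Cdh8 had −1.0 ± 0.991 (SE), ranging from −3.91 without DKO embryo 1, where the remaining posterior DKO libraries are all at 0, to −0.27 without DKO embryo 4. Cdh20 had −0.37 ± 0.497 (SE), from −0.59 without DKO embryo 2 to −0.03 without DKO embryo 4. For Cdh3 the difference was 0.28 ± 0.175 (SE), and for Cdh1, Cdh2, Cdh4, Cdh6 and Cdh11 it lay between −0.11 and 0.06. DESeq2 called 10 genes in this comparison and no cadherin.

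Genes that work with cadherins were read next in control embryos. The catenins common to all junctions were nearly level: Ctnnb1 (beta-catenin) was at 1300 ± 40.4 CPM anteriorly and 1310 ± 30.8 CPM posteriorly, and Ctnnd1 (p120-catenin) at 195 ± 12.4 and 201 ± 7.96 CPM (SD, n = 5 each). Neither passed (edgeR adjusted p = 0.859 and 0.612), nor did Jup (plakoglobin, adjusted p = 0.584). Ctnna1, the alpha-catenin of most tissues, was higher by 0.17 ± 0.0538 on the log2 scale (SE; edgeR adjusted p = 0.0334).

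Ctnna2, the alpha-catenin of neurons, had a log2 fold change of −2.23 ± 0.163 (SE; edgeR adjusted p = 9.29e-07), and Ctnnd2, its delta-catenin counterpart, −0.61. Arvcf, related to p120-catenin, had −0.50. In all, 2 of the 15 catenins and adaptors tested were higher and 4 lower, where 12.1% and 13.3% of all genes were, with a median log2 fold change of 0.04 (−0.01 over all genes tested).

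Of the 8 other cadherins tested 0 were higher and 2 lower: Cdh15, the M-cadherin of muscle (−1.76 ± 0.177, edgeR adjusted p = 1.25e-05), and Cdh19, found in the neural crest lineage. Cdh19 was at 1.52 ± 0.366 CPM in anterior and 0.146 ± 0.0964 CPM in posterior controls (SD, n = 5 each). The posterior level lies within the range of the floor of 3 counts, and the gene entered the test through the anterior libraries, where it was high. The delta protocadherins, a separate branch of the superfamily, had 4 higher and 2 lower of 8 tested. Pcdh19 (2.07) and Pcdh7 (1.74) were higher and Pcdh10 (−2.29) was lower, as log2 fold changes. In DKO embryos 0 of 7 other cadherins were higher and 4 lower, and 3 of 8 delta protocadherins were higher and 3 lower, where 8.76% of all genes were higher and 9.7% lower.

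Regulators of cadherin genes were also listed. Among 9 transcription factors of epithelial to mesenchymal transition, several of them repressors of Cdh1, 2 were higher posteriorly in controls and 2 lower. Snai1 (0.55 ± 0.0998, edgeR adjusted p = 0.0014) and Foxc2 (1.15 ± 0.123) were higher, and Zeb1 (−0.38 ± 0.054, edgeR adjusted p = 0.000223) and Zeb2 (−0.43 ± 0.0784) were lower. Snai2 was at 0.35 ± 0.134 (edgeR adjusted p = 0.0739). Of 9 regulators that promote the epithelial state, 6 were higher and 0 lower, with a median of 1.31. Grhl3 (2.37), Esrp2 (1.99) and Esrp1 (1.31) encode transcription or splicing factors of epithelia. They had the largest log2 fold changes among the 6 that passed, apart from Ovol1. Ovol1, a transcription factor of epithelia, averaged 0.089 CPM in anterior controls, within the range of the floor, and 0.977 CPM in posterior ones, the libraries through which it entered the test.

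Markers of the tissues in each piece were compared in the same way. Of 10 markers of surface ectoderm and general epithelium, 7 were higher posteriorly in controls and 0 lower, with a median of 1.11, and their sum was 125 to 244 CPM in anterior and 284 to 399 CPM in posterior controls. Epcam, an adhesion molecule of epithelia, rose by 1.51 ± 0.157 on the log2 scale (edgeR adjusted p = 1.65e-05), beside 1.30 for Cdh1. Gut endoderm markers were higher in 4 and lower in 1 of 7 tested, with sums of 40.7 to 59.1 and 65.2 to 98.2 CPM. No marker of either list was at 0 in every library of a group. Their part in the higher Cdh1 and Cdh3 was not tested.

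All 10 neural tube markers were lower posteriorly in controls, with a median of −0.83 and sums of 547 to 685 against 279 to 398 CPM. Sox2, of neural progenitors, had −0.70 ± 0.0733 (SE; edgeR adjusted p = 1.68e-05). Of 8 neural crest markers 6 were lower and 0 higher (median −0.72, sums 234 to 281 against 144 to 202 CPM), and Sox10 had −1.59 ± 0.194. Their part in the lower Cdh4, Cdh6, Cdh7, Cdh8 and Cdh11 was not tested.

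Paraxial mesoderm and somite markers were divided, 4 of 10 higher and 5 lower, and Meox1 rose by 0.32 ± 0.0709 (SE; edgeR adjusted p = 0.0053). All 8 axial bud markers and all 6 intermediate mesoderm markers were higher posteriorly, with medians of 4.1 and 2.2. Endothelial markers were lower in 3 of 6 and higher in none, and 0 of 6 markers of primitive erythroid cells were called. No marker of any of these lists was at 0 in every library of a group.

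Between DKO and control embryos the lists had no member called (edgeR), with 1 exception: Cdh15 was higher in anterior DKO pieces by 0.71 ± 0.0899 on the log2 scale (SE; edgeR adjusted p = 0.0286). Without DKO embryo 1, DKO embryo 3 or any of control embryos 2 to 5, 0 genes were called higher there, so that this call was lost. Cdh15 is not among the 9 members. At an unadjusted p below 0.05, where 13% of all genes lay anteriorly and 11% posteriorly, some marker lists had more members. Of the 10 neural tube markers 8 were below it anteriorly, and the sum of the list was 547 to 685 CPM in controls and 719 to 793 CPM in DKO pieces, without overlap. Posteriorly 2 of the 10 were, and the sums overlapped (279 to 398 against 336 to 447 CPM). Of the 10 paraxial mesoderm and somite markers 8 were below it anteriorly, with sums of 411 to 474 against 307 to 409 CPM. Posteriorly 4 of the 10 were, with sums of 422 to 571 against 261 to 448 CPM. Not all of the 8 anterior ones had the same sign, since Myf5 (0.80) and Uncx (0.32) had positive log2 fold changes there. Of 8 neural crest markers 5 were below it anteriorly (median 0.32), and 1 of 7 tested was posteriorly (median 0.03). Of 10 epithelial markers 2 were below it anteriorly (median 0.24) and 5 posteriorly (median 0.32). Of 6 primitive erythroid markers 0 were below it anteriorly (median −0.70) and 4 posteriorly (median 0.48). In the interaction, where 3.45% of all genes were below it, 5 of these 6 were. All 6 intermediate mesoderm markers were below it posteriorly, with sums of 74.7 to 92.0 against 36.0 to 58.9 CPM and a median log2 fold change of −1.11. Anteriorly 3 of the 6 were (median −0.93), with sums of 10.7 to 27.5 against 7.15 to 17.3 CPM. The part of these markers in the DKO values of the cadherins was not tested.

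Finally, the variation among libraries of the same group was described for the 6 members with a mean of at least 50 counts, after removal of the group means. Over 18 libraries Cdh1 and Cdh3 had a Pearson correlation of log2 CPM of 0.72, and Cdh6 and Cdh11 one of 0.78. Cdh1 with Cdh6 and with Cdh4 were near 0. Cdh6 and Cdh11 both spread most in posterior DKO pieces (SD 7.83 and 15.3 CPM, n = 4). There embryo 1 was highest and embryo 4 lowest in both genes. How far the correlations of both genes, here and below, rest on those libraries was not tested. Libraries of the same embryo are not independent and depth is shared by all genes of a library, so no p is given.

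**Figure D4:**
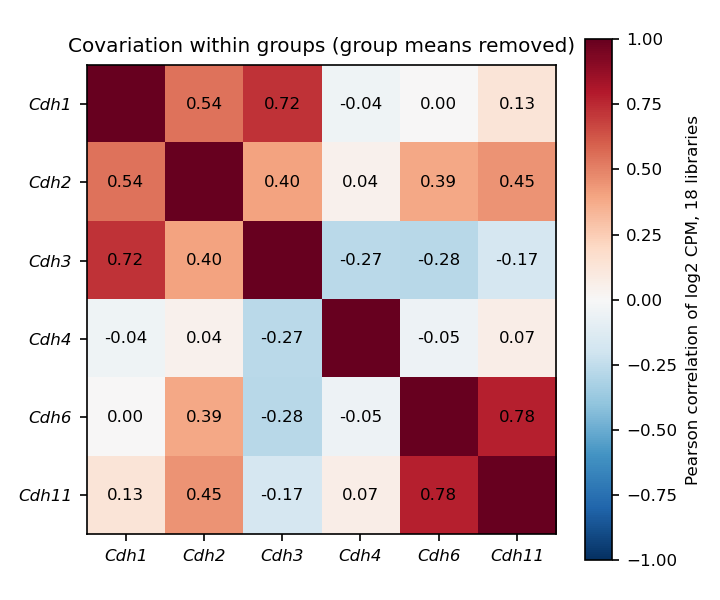
Pearson correlation of log2 CPM between 6 cadherins over 18 libraries with group means removed (colour scale from −1 to 1, values in the cells). Cdh1 with Cdh3 (0.72) and Cdh6 with Cdh11 (0.78) are the 2 highest pairs.

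Among 11818 protein-coding genes, those nearest to Cdh1 were Hand1 (0.88), a transcription factor of lateral mesoderm, Epcam (0.85) and Fam83h (0.84). Nearest to Cdh3 were Smpd4 (0.84), Ap1b1 (0.83) and Fblim1 (0.83). Cdh11 was followed closest by Trappc8 (0.94), Col11a1 (0.93), a fibrillar collagen, and Jcad (0.93), and Cdh6 by Atf2 (0.88), Zfp711 (0.86) and Osbpl8 (0.86). Of the Snail and Zeb repressors, Zeb2 had 0.71 with Cdh11 and 0.68 with Cdh6, and Zeb1 0.69 and 0.57. With Cdh3 the values were −0.43 for Zeb2, 0.03 for Zeb1, 0.25 for Snai1 and 0.37 for Snai2. With Cdh1 they were −0.17, −0.14, 0.24 and 0.13 in that order. Cdh2, whose log2 level varied within groups by an SD of only 0.076, was nearest to Nup205 (0.87), Rab23 (0.86) and Zfp280b (0.85). Cdh4 had lower values with its nearest genes, Ndor1 (0.78), Mbp (0.75) and Ccdc77 (0.74).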

How the data were processed

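The authors deposited RSEM expected counts per Ensembl gene on GRCm38, not scaled between libraries; CASAVA, cutadapt and RSEM are named in the submitters' processing notes. The labels' protocols describe poly(A) RNA, NEBNext libraries and 61 bp single-end reads on a HiSeq instrument. Aligner, versions and use of strand are not given in the sources used here. Symbols, coordinates and exon lengths came from GENCODE M21, which held 53360 of the 53465 identifiers. The exon length is the union over transcripts and can exceed that of the transcripts present, which lowers CPM per kb.

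Counts were rounded and tested in R 4.3.3 with edgeR 4.0.16 (filterByExpr with minimum count 10 and minimum total 15, TMM, glmQLFit, glmQLFTest), with Benjamini-Hochberg adjustment over all genes tested and a threshold of 0.05. The SE is the size of the log2 fold change divided by the square root of F. Printed CPM were scaled by TMM over all 18 libraries, and 2 was the prior count of log2 CPM. Ratios of summed counts carry exact 95% intervals for counting error only. Before use, the scripts were tested on simulated data with known changes. Alternatives used DESeq2 1.42.0, limma 3.58.1 (voom), other size factors, other count filters, 1 fit of all libraries, somite number, the embryo as a block, and leaving out each embryo.

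Pieces were assigned to embryos by genotype, sex label and somite number. With group means removed, pieces of the same embryo correlated at 0.288 to 0.618 in 9 pairs, and pieces of different embryos of the same genotype at −0.31 to 0.0989 in 32 pairs, those between control embryos 1 and 5 among them.

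The members and lists were chosen with earlier results of these data known. All 9 members are described. For those with a mean of at least 50 counts, the 3 protein-coding genes with the highest correlation are named. From each list at most 4 genes past the threshold with the largest change are named per comparison, besides Ctnnb1, Ctnna1, Ctnnd1, Jup, Snai1, Snai2, Zeb1, Zeb2, Epcam, Sox2, Sox10 and Meox1. Myf5 and Uncx did not pass between DKO and control embryos and are named there only for their sign.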

Additional observations from a re-analysis of the deposited data

Results flagged for a closer look

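In each of the 36 combinations of a cadherin and a group, the highest or lowest library was compared with the rest by Dixon's criterion, which chance meets in about 1 of 20 groups. It was met in 5 of 36. For Cdh2, anterior control embryo 2 stood apart with 306 CPM, above the 258 to 269 CPM of the other 4, and posterior DKO embryo 4 stood apart with 252 CPM, below 290 to 295 CPM. For Cdh11, anterior DKO embryo 2 was low at 121 CPM, below 3 libraries near 130 CPM. For Cdh20, posterior DKO embryo 4 was low at 0.102 CPM (2 counts), below 0.663 to 0.694 CPM. For Cdh8, posterior DKO embryo 1 stood apart at 0.114 CPM (3 counts) because the other 3 libraries were at 0. Posterior DKO embryo 4 also had the lowest Cdh11 (69.3 CPM) and Cdh6 (36.3 CPM) of its group. Without it, the posterior log2 fold changes of DKO against control were 0.22 for Cdh11 instead of 0.12 and 0.24 for Cdh6 instead of 0.14, and neither passed (edgeR adjusted p = 0.454 and 0.529). These were the highest values with 1 embryo left out, and the lowest was 0.045 for either gene.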

How the results depend on the processing

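Posterior against anterior in controls, 6 of the 9 members passed, and 5 to 7 did under the alternatives: 5 with a filter at a mean of 50 counts, which drops Cdh7, and 7 with no filter or all 18 libraries in one fit, which add Cdh8. All 104 values of single alternatives kept direction and side of the threshold. In DKO embryos 4 passed, 3 to 5 with 1 embryo left out and 6 with no filter or all 18 libraries in one fit, which add Cdh7 and Cdh8. In the fit of all 18 libraries these genes enter through the anterior libraries, where they are high, so those added calls support nothing. With no filter, entry does not depend on their values, and the calls rest on few posterior counts. The calls lost were Cdh4 without DKO embryo 1 (−0.61) and Cdh11 without DKO embryo 3 (−0.49), where fewer samples were fitted. DKO against control and the interaction gave 0 of the 9 members under every alternative run. With the embryo as a replicate block the counts were 6 in controls, 4 in DKO embryos and 0 for the interaction, so that it changed no call of a member. Over all genes the block raised the count in controls from 3884 to 5136.

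The directions that turned were all of changes that had not passed, and the cause was not tested. The interaction of Cdh6 (0.00) was −0.004 with RLE, −0.003 with DESeq2, −0.004 with limma-voom, −0.009 with no filter, −0.001 with somite number, −0.011 with the replicate block and −0.051 to 0.056 with 1 embryo left out. With 1 embryo left out, the interactions of Cdh1 and Cdh11 ran from −0.25 to 0.055 and from −0.004 to 0.18. Likewise, Cdh2 in DKO embryos ran from −0.008 to 0.048, and DKO against control from −0.12 to 0.07 for Cdh4 anteriorly, from −0.046 to 0.018 for Cdh2 and from −0.12 to 0.014 for Cdh3 posteriorly.

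Over all genes, DKO against control gave 6 calls anteriorly (1 to 296 over the alternatives, the most with DESeq2) and 2 posteriorly (1 to 162). The interaction gave 0 (0 to 10), and posterior against anterior gave 2913 in DKO embryos (1728 without DKO embryo 1, at most 3564). Depth limits Cdh7, Cdh8 and Cdh20, which had 0 to 51 counts per library.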
